A study of Mus musculus with 6 samples.

Results

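The complement system is a set of plasma and membrane proteins that tag cells and particles for removal. The classical pathway starts with C1, in which the proteases C1r and C1s cut C4 and C2. The lectin pathway reaches C4 through the MASP proteases, and the alternative pathway amplifies cleavage of C3 with factor B. All routes meet at C3, and cells protect themselves with membrane regulators such as CD55 and CD59. The liver makes most complement protein in plasma, and fibroblasts, smooth muscle cells and macrophages make some locally. The 9 genes described here are components (C1ra, C1s1, C1rl, C4b, C3, Cfb, Masp1) and membrane regulators (Cd55, Cd59a). They were taken by symbol from the 56393 genes of the deposited table.

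RNA sequencing was done on mouse cells that the labels call primary VSMC (vascular smooth muscle cells), in a series on the paraspeckle protein NONO and vascular calcification. One group was knocked out for Nono (KO, n = 3 libraries) and the other was wild type (WT, n = 3 libraries). All cells grew in DMEM with fetal bovine serum and antibiotics, with no added treatment. The labels give no mouse strain, age or knockout method, and do not state whether replicates came from separate cultures or animals and whether the KO cells are a single clone. The p-values therefore measure only the spread between these libraries, which may be technical.

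Library totals ranged from 56529170 to 61670083 counts. Nono itself was lower in KO, with means of 514.9 in WT and 53.95 in KO in CPM (counts scaled to library size with TMM factors). Of 18732 genes tested with edgeR, 69.3% passed an adjusted p of 0.05, so a call by itself sets few genes apart. The 8 smooth muscle markers summed to 67.4 to 76.5 CPM in WT and 245 to 249 CPM in KO. Of these, Acta2, Tagln, Cnn1, Lmod1 and Smtn were called higher and Myocd and Des lower. Acta2, smooth muscle actin, made up most of the KO sum, with a mean level that rose from 16.4 to 161 CPM. Myh11, smooth muscle myosin heavy chain, and Myocd, the coactivator of smooth muscle genes, were under 1 CPM in both groups. The 4 Y-linked genes Eif2s3y, Kdm5d, Uty and Ddx3y summed to 0 to 0.0795 CPM in the WT libraries and 149.9 to 163.3 CPM in the KO libraries, so sex-linked origin and genotype cannot be told apart in any result below. The fibroblast markers Dcn, Lum, Pdgfra, Col1a1, Col3a1, Dpt and Pi16 summed to 875 to 1026 CPM in WT and 10650.0 to 11525 CPM in KO. Of these 7, 6 were called higher, as were 35.1% of all tested genes.

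All 9 complement genes passed the filter on low counts, with at least 138 counts in every library, and all 9 passed the test. C3, C4b, C1s1, C1ra, Cfb and C1rl rose in KO, and Cd55, Cd59a and Masp1 fell. The background is 35.1% of tested genes called higher and 34.2% called lower. The WT and KO values did not overlap in any of the 9, which was so in 75.5% of all tested genes. Rises of at least 4-fold were seen in 5 of the 9 (C3, C1s1, C4b, Cfb and C1ra), against 11.7% of all tested genes, and a fall of at least 4-fold in Cd55 alone, against 9.74%. The median log2 fold change of the 9 was 3.07, and that of all tested genes 0.0313. The 9 genes were chosen with earlier results of these data known, so these contrasts describe the list and do not test it.

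**Figure D1:**
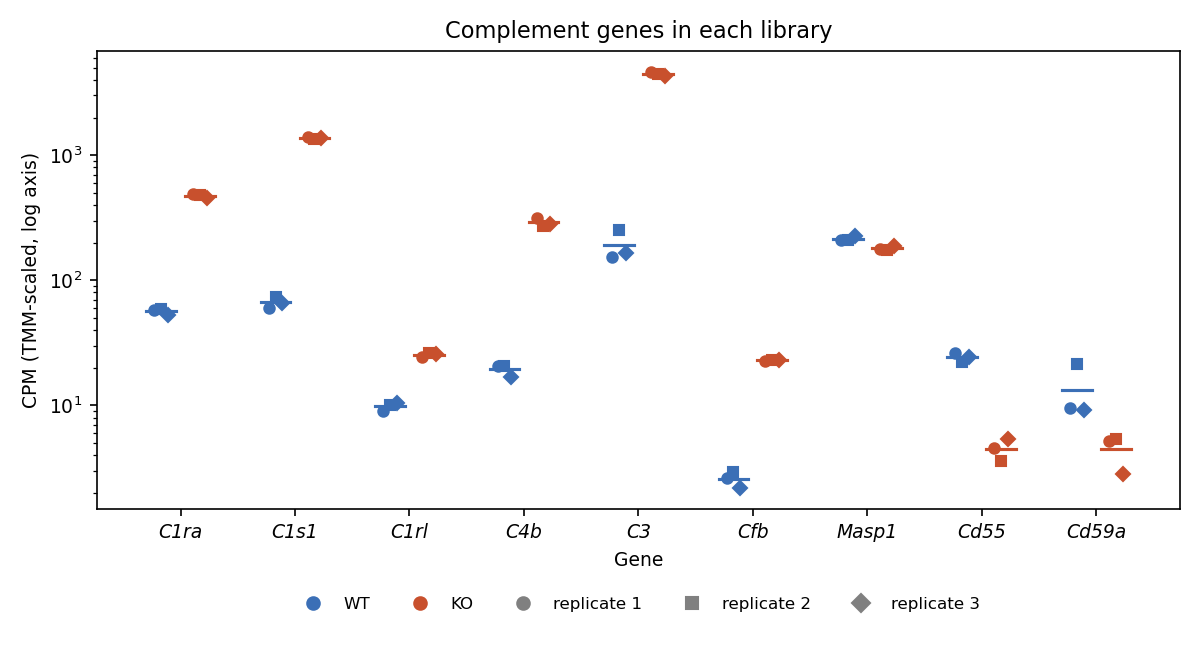
Level of each gene in each library in CPM (TMM-scaled counts, log axis). Points are libraries, with the shape giving the replicate number, and bars are means of 3 libraries. C3 lies between 152 and 253 CPM in WT and between 4257 and 4659 CPM in KO, whereas the Masp1 groups lie close together and the square of WT replicate 2 stands above the other WT libraries for Cd59a.

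C3, the component cut by every activation route, was the most abundant of the 9 in KO. Its level was 152, 253 and 165 CPM in WT replicates 1 to 3, and 4659, 4473 and 4257 CPM in KO replicates 1 to 3. WT replicate 2 was the highest of the WT libraries, and all KO libraries lay far above it. The rise was 23.5-fold (log2 fold change 4.55 ± 0.24 SE, edgeR adjusted p = 1.65e-05), from 190.2 ± 55.2 to 4463 ± 201 CPM (SD, n = 3 each). C3 reads made up 0.0158% to 0.0269% of all counts in the WT libraries and 0.407% to 0.443% in the KO libraries. Per length, in the authors' FPKM (fragments scaled to transcript length and library size), C3 had a mean level of 34.8 in WT and 733 in KO, ranks 2434 and 83 among the 56393 listed genes. Its share of the FPKM summed over the 9 genes was 19.8% to 27.1% in the WT libraries and 50.1% to 51.9% in the KO libraries.

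Promoter windows of 250 bases before the RefSeq start (RefSeq table, build GRCm38.p6) were matched for 6 of the 9 genes. They are shown for 3 of the genes that rose, as those with a C/EBP-type match, and for Cd55, as the gene with the largest fall. Capitals mark matches to the searched motifs. Each line reads 5′ to 3′ on the gene's strand and ends at the base before the start.
C3, chr17:57228137-57228386, minus strand: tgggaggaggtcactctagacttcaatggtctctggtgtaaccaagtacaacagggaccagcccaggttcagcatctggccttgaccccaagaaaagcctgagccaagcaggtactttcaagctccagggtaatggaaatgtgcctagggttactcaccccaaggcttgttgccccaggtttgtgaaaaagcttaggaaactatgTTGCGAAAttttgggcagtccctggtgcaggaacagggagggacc
C1s1, chr6:124542360-124542609, minus strand: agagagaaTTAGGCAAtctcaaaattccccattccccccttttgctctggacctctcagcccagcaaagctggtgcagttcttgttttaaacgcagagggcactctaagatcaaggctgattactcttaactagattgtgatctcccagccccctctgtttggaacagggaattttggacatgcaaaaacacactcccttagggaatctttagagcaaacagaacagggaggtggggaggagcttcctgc
C1rl, chr6:124492863-124493112, plus strand: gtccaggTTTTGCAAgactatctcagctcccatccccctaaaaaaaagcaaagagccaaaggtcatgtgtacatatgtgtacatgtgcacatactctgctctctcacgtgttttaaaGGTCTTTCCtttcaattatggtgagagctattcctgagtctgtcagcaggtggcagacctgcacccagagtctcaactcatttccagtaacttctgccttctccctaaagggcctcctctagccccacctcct
Cd55, chr1:130462745-130462994, minus strand: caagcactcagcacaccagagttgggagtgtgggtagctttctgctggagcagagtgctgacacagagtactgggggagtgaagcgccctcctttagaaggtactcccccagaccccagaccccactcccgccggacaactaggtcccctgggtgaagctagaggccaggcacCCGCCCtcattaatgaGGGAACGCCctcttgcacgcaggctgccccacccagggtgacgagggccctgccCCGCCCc

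The motifs searched on both strands were C/EBP (TTGCNNAA), STAT (TTCNNNGAA), NF-kB (GGNNTTNCC), AP-1 (TGANTCA), ISRE (TTTCNNTTT), SP1 (GGGCGG) and a TATA box (TATAAA). A C/EBP match lay 45 to 38 bases before the start of C3, 242 to 235 bases before that of C1s1 and 243 to 236 bases before that of C1rl, where 9.56% of 32851 promoter windows of the same length held at least 1. The window of a further RefSeq start of C1s1, and the single window of C1ra, held no match to any of the 7 motifs. The further C1s1 window overlaps the first and begins after its C/EBP match, so that match is only cut off by the window length. NF-kB matches lay 133 to 125 bases before the start of C1rl and 61 to 53 bases before that of Cd55 (13.5% of all windows hold 1). Cd55 also held 2 SP1 matches (32.7%), and Cd59a an ISRE match 186 to 178 bases before its start (9.37%). STAT (7.02%), AP-1 (6.75%) and TATA box (12.4%) matches were in none of the 6 genes' windows. No match overlapped another. A match describes letters and does not show binding.

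The C1 proteases both rose, with a larger fitted fold for C1s1. C1s1, which encodes the protease that cuts C4 and C2, was at 60.5, 73.8 and 66.2 CPM in WT and 1410, 1345 and 1373 CPM in KO. The groups were far apart, and the change was 20.6-fold (log2 fold change 4.36 ± 0.08 SE, edgeR adjusted p = 2.80e-09). C1ra, which encodes the protease that activates C1s, was at 57.9, 58.9 and 53.3 CPM in WT and 487, 481 and 458 CPM in KO. Replicates lay close together in each group, and the rise was 8.39-fold (log2 fold change 3.07 ± 0.06 SE, edgeR adjusted p = 2.80e-09). Per length, the ratio of C1s1 to C1ra FPKM was 1.20, 1.43 and 1.39 in WT and 3.32, 3.22 and 3.53 in KO. The 2 transcripts were thus at more similar levels in every WT library than in any KO library. C1rl, a C1r-like serine protease encoded beside them, rose less. It was at 9.10, 10.2 and 10.5 CPM in WT and 24.3, 26.0 and 25.9 CPM in KO, a 2.56-fold rise (log2 fold change 1.35 ± 0.10 SE, edgeR adjusted p = 3.40e-06).

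C4b, the mouse gene for complement C4, whose product is cut by C1s and by the lectin pathway proteases, was at 20.7, 20.6 and 16.9 CPM in WT and 314, 273 and 284 CPM in KO. Every KO library lay above every WT library, with a 14.9-fold rise (log2 fold change 3.90 ± 0.10 SE, edgeR adjusted p = 1.67e-08). Cfb encodes factor B, which supplies the protease of the alternative pathway C3 convertase. It was low in WT, at 2.61, 2.93 and 2.19 CPM, and at 22.4, 23.2 and 22.97 CPM in KO. The rise was 8.86-fold (log2 fold change 3.15 ± 0.13 SE, edgeR adjusted p = 1.67e-07). Exons of the read-through gene Gm20547 cover 79.5% of the exon bases of Cfb on the same strand in GENCODE M21, so reads could be assigned to either. Gm20547 had 11, 3 and 26 counts in the WT libraries and 0, 0 and 4 in the KO libraries, against 165, 176 and 138 counts of Cfb in WT and 1316, 1277 and 1354 in KO. The deposited FPKM of Cfb in WT replicate 3 was 2.29 times the level that its count and the median of the 6 libraries would give, and the KO to WT ratio of mean FPKM was 6.72.

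Masp1 encodes a protease of the lectin pathway, and the same gene also gives MASP-3 and MAp44, which gene-level counts do not separate. It was the most abundant of the 9 genes in WT per length, at 52.9 ± 1.62 FPKM (SD, n = 3), and had 40.2 ± 1.35 FPKM in KO. Counts gave 211, 209 and 226 CPM in WT and 178, 174 and 186 CPM in KO. The groups did not overlap, but the fall was only 1.20-fold (log2 fold change -0.26 ± 0.05 SE, edgeR adjusted p = 0.00141). Across all alternative settings the log2 fold change of Masp1 lay between -0.39 and -0.22, with every setting below 0.

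The membrane regulators Cd55 and Cd59a were lower in KO. Cd55, also called decay-accelerating factor, breaks up the C3 convertases on the cell's own surface. It was at 26.2, 22.3 and 24.3 CPM in WT and 4.54, 3.56 and 5.34 CPM in KO. The lowest WT library was well above the highest KO library, and the fall was 5.42-fold (log2 fold change -2.44 ± 0.16 SE, edgeR adjusted p = 2.20e-06). Cd59a encodes a GPI-anchored protein that blocks assembly of the membrane attack complex. It was at 9.57, 21.2 and 9.14 CPM in WT and 5.23, 5.40 and 2.85 CPM in KO. WT replicate 2 was above the other WT libraries and KO replicate 3 below the other KO libraries, without overlap between the groups. The fall was 2.96-fold (log2 fold change -1.57 ± 0.41 SE, edgeR adjusted p = 0.0126). Leaving out WT replicate 2 gave a log2 fold change of -1.06 (edgeR adjusted p = 0.012). In CPM, WT replicate 2 was also the highest WT library for C3, C1s1, C1ra and Cfb. It was the lowest for Cd55 and Masp1 and lay between the others for C4b and C1rl.

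The order of levels differed between the groups. By mean FPKM the WT order was Masp1 (52.9), C3 (34.8), C1s1 (23.3), C1ra (17.4), Cd55 (9.60), Cd59a (7.49), C4b (4.02), C1rl (3.01) and Cfb (1.31). Libraries of neighbours in that order overlapped between Cd55 and Cd59a, where Cd59a spread from 5.30 to 11.6 FPKM. In KO it was C3 (733), C1s1 (448), C1ra (134), C4b (53.5), Masp1 (40.2), Cfb (8.82), C1rl (7.07), Cd59a (2.34) and Cd55 (1.73), with overlap of single libraries only between the last pair. The summed FPKM of the 9 genes was 141 to 174 in the WT libraries and 1397 to 1467 in the KO libraries.

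Near-identical gene copies limit how exactly some of these levels can be assigned. In GENCODE M21 transcripts, 48.0% of the 50-base stretches of C1ra are also present in C1rb, 34.6% of those of C4b in C4a, and 21.8% of those of C1s1 in C1s2. For Cd55 and Cd55b it is 8.0%, and for Cd59a and Cd59b 3.87%. C1ra shares none with C1rl. How reads that match several genes were counted is not given in the sources used here.

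The counts assigned to the copies C1rb, C1s2 and C4a rose too, each by less than its partner in fitted fold change. C1rb rose from 10.7 ± 0.53 to 66.1 ± 3.56 CPM (6.15-fold, edgeR adjusted p = 2.80e-08), C1s2 from 4.75 ± 0.53 to 20.4 ± 0.25 CPM (4.28-fold, edgeR adjusted p = 8.30e-07) and C4a from 3.01 ± 0.08 to 9.14 ± 0.74 CPM (3.04-fold, edgeR adjusted p = 1.20e-05; SD, n = 3 each). The C4a call was lost in limma on log2(FPKM + 0.1), with a log2 fold change of 0.47. C4b took 84.5% to 87.5% of the counts of its pair in WT and 96.7% to 97.1% in KO. C1ra took 83.3% to 84.9% in WT and 87.4% to 88.0% in KO, and C1s1 92.2% to 94.7% in WT and 98.5% to 98.6% in KO. In these 3 pairs no KO library overlapped a WT library. Cd59b stayed near the limit of detection, with 9 to 14 counts in the WT libraries and 9 to 24 in the KO libraries (edgeR adjusted p = 0.52). Cd55b had 25, 0 and 17 counts in the WT libraries and 0 in every KO library, and was removed by the low-count filter.

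**Figure D2:**
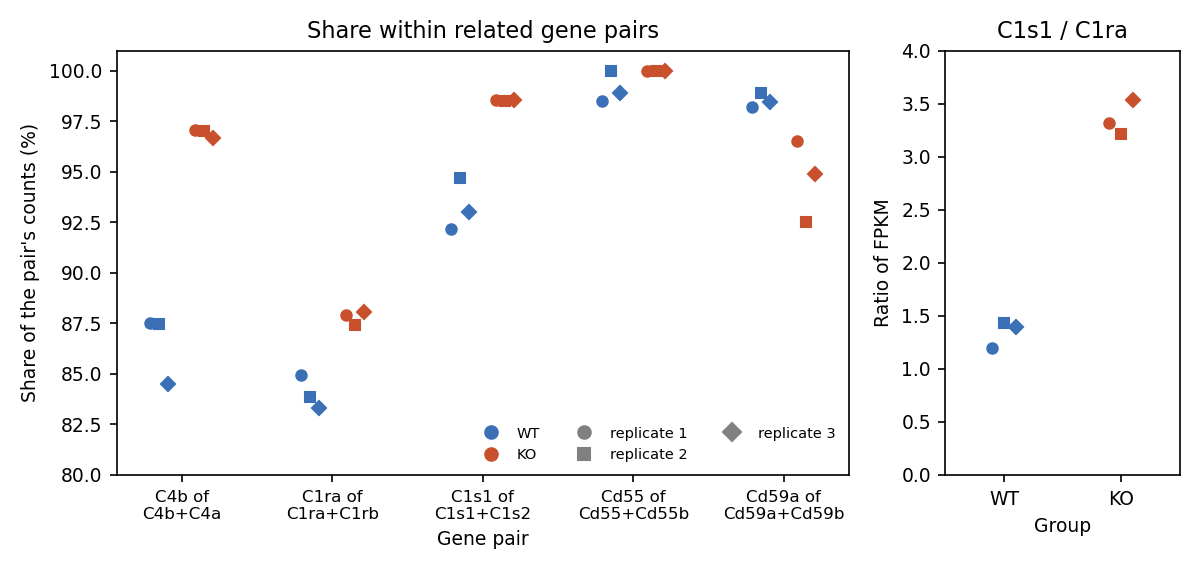
Left, share of the summed counts of a gene and its related copy that was assigned to the first gene (percent, axis from 80) in each library. Right, ratio of C1s1 to C1ra FPKM. Points are libraries, with the shape giving the replicate number. The C4b share lies at 84.5% to 87.5% in WT and 96.7% to 97.1% in KO, and the C1s1 to C1ra ratio at 1.20 to 1.43 in WT and 3.22 to 3.53 in KO.

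Of 48 other complement genes listed by role, 20 passed the filter on low counts, and of these 11 were higher and 3 lower in KO, with a median log2 fold change of 0.72. The background is 35.1% higher and 34.2% lower. The 11 include C1rb, C1s2 and C4a, which share stretches of sequence with C1ra, C1s1 and C4b, so these calls may not be separate. No reads were counted in any library for 14 of the 48. Among these were C1qa, C1qb and C1qc, the chains of the C1q recognition subunit that C1r and C1s assemble with, where a floor of 3 counts over a group corresponds to 0.0161 CPM in WT or 0.0174 in KO. Such floors reflect counting error alone. Transcripts of the classical pathway proteases and of C4 were thus counted in every library, and those of C1q in none. C2, the protease partner of C4, was not called, with 0.56 ± 0.20 CPM in WT against 0.54 ± 0.16 in KO (edgeR adjusted p = 0.906).

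Besides Masp1 and Cfb, the genes listed for the lectin, alternative and terminal pathways had few transcripts. Of 7 lectin pathway genes 2 were tested, Masp2, the protease that cuts C4 and C2, called lower (0.52 ± 0.23 to 0.18 ± 0.04 CPM, edgeR adjusted p = 0.0325), and the collectin Colec11, not called. The Masp2 call was lost in 9 of 14 alternative settings, with the adjusted p at up to 0.169. Cfp, properdin, which stabilises the alternative pathway convertase, rose 1.69-fold from 4.26 ± 0.20 to 7.19 ± 0.32 CPM (edgeR adjusted p = 0.00103). Cfd, factor D, which cuts factor B, had 5 counts in KO replicate 2 and 0 in the other libraries. Of 7 terminal pathway genes only C8g, the gamma chain of C8, was tested and called higher (1.16 ± 0.10 to 2.61 ± 0.76 CPM, edgeR adjusted p = 0.00616). The gene for C5, Hc, had 9 counts in KO replicate 3 (a KO mean of 0.0509 CPM) and 0 in the other libraries.

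Of 9 soluble regulators listed 3 were tested. Serping1 and Clu were called higher, as were 35.1% of all tested genes, and Cfhr2 was not called (edgeR adjusted p = 0.109). Serping1 encodes C1 inhibitor, which inactivates C1r, C1s and the MASP proteases. It was at 0.460, 0.250 and 0.318 CPM in WT and 145, 133 and 141 CPM in KO, a 404-fold rise (log2 fold change 8.66 ± 0.16 SE, edgeR adjusted p = 2.94e-09). Clu, clusterin, rose from 63.6 ± 5.08 to 74.9 ± 5.08 CPM (edgeR adjusted p = 0.0254), a call lost in 9 of 15 settings.

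Of 6 membrane regulators listed besides Cd55 and Cd59a, 4 were tested and 2 of these, Cd46 and Csmd1, were called higher. The share called higher over all tested genes was 35.1%. Cd46, a cofactor for cleavage of C3b and C4b, rose 2.49-fold, from 3.67 ± 0.56 to 9.11 ± 1.47 CPM (edgeR adjusted p = 0.000227). Cr1l, also called Crry, a rodent regulator of C3 convertases, had 48.9 ± 3.15 CPM in WT against 43.6 ± 1.84 in KO (edgeR adjusted p = 0.0694). It was called lower with scaling by total counts and in both tests on FPKM. Csmd1, a large CUB and sushi domain protein that inhibits complement, had no counts in WT and averaged 193 ± 19.9 CPM in KO. Taking 3 counts over the WT group as the floor, it was at least 11964-fold higher. Cd59b was not called.

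Receptors and binding proteins went in both directions, with 5 of 10 tested, 2 higher and 2 lower. The shares over all tested genes were 35.1% higher and 34.2% lower. C3ar1, the receptor for the C3 fragment C3a, fell 5.23-fold, from 6.80, 5.05 and 6.28 CPM in WT to 1.02, 0.946 and 1.49 CPM in KO (edgeR adjusted p = 3.47e-05). C1qbp, a mainly mitochondrial protein that can bind C1q, fell 2.35-fold (edgeR adjusted p = 1.59e-06). Itgb2, the beta chain shared by complement receptors CR3 and CR4, rose from 0.26 ± 0.17 to 8.59 ± 1.68 CPM (edgeR adjusted p = 1.10e-05), while its alpha chain partners Itgam and Itgax were at 0 counts in all libraries. Cr2 was called higher at low levels, from 0.54 to 1.10 CPM (edgeR adjusted p = 0.0226), a call lost in 7 of 14 settings.

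**Figure D3:**
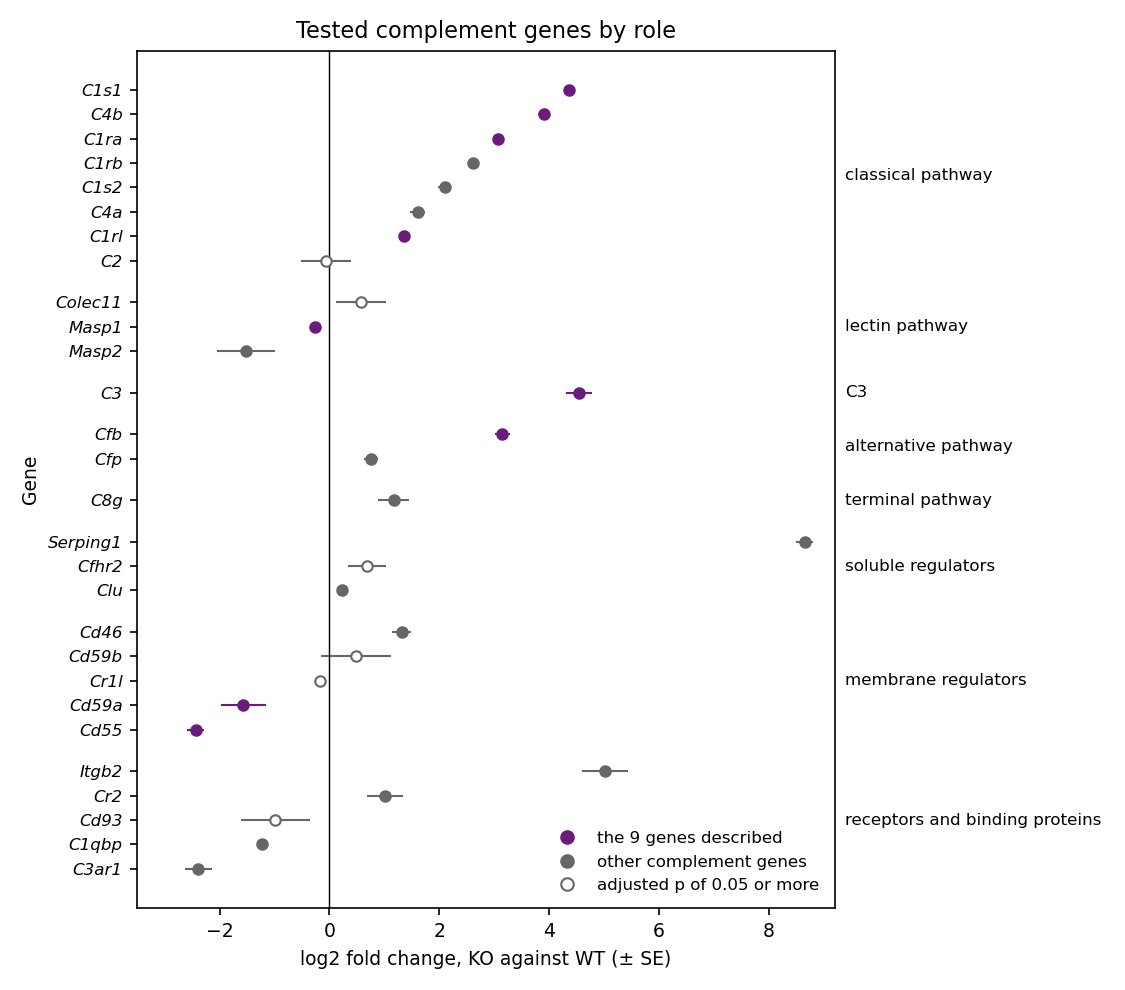
Log2 fold change, KO against WT, with its SE for the tested complement genes by role (edgeR fit over 3 WT and 3 KO libraries). Csmd1, at 0 counts in WT, is left out because its fold is only a bound. Filled points passed an adjusted p of 0.05. The classical pathway genes lie at 1.35 to 4.36 except C2 at -0.07, and Cd55 and Cd59a lie lowest among the membrane regulators.

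Markers of other cell types that make complement were compared beside these values. The background for their calls is 35.1% of all tested genes higher and 34.2% lower. Hepatocyte markers (Alb, Apoa1, Ttr, Serpina1a and Fgb) summed to at most 0.136 CPM in any library, with Ttr and Serpina1a at 0 in all. Of 9 macrophage and leukocyte markers, 5 were tested, 3 were higher and 1 lower. They summed to 21.2 to 23.9 CPM in WT and 72.8 to 88.2 CPM in KO, most of it Cd14, and Ptprc, Adgre1 and Itgam were at 0 in all libraries. The 3 higher were Cd14 (means of 12.4 in WT and 74.5 CPM in KO), Csf1r and Cd68. The 1 lower was Lyz2, with means of 8.54 CPM in WT and 0.21 CPM in KO, so the markers did not move together. Endothelial markers summed to 3.29 to 3.70 CPM in WT and 1.58 to 1.93 CPM in KO (4 of 6 tested, 1 higher and 3 lower). Epithelial and mesothelial markers summed to 76.9 to 84.5 CPM in WT and 7.69 to 10.4 CPM in KO (2 of 6 tested, both lower), with Epcam and Krt18 at 0 in all. The fibroblast, smooth muscle and macrophage sums were all higher in KO, as were the complement genes that rose, and the part of each in their change was not tested. In bulk RNA, more cells of a type and more RNA per cell cannot be told apart.

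Several of the genes lie beside each other, and the change is given here along the chromosome. On chromosome 6, C1rl, C1ra, C1s1, C1rb and C1s2 are consecutive protein-coding genes in GENCODE M21. All 5 were called higher, as were 35.1% of all tested genes. C1rb and C1s2 share stretches of sequence with C1ra and C1s1, so the 5 calls may not be separate. Clstn3, next to C1rl, was lower (log2 fold change -1.69 ± 0.40 SE, edgeR adjusted p = 0.00558). Its level was low, with means of 1.01 CPM in WT and 0.31 CPM in KO. Lpcat3, next to C1s2, was not called (log2 fold change 0.18, edgeR adjusted p = 0.16). Beyond them Pex5 was higher at 0.47, and Emg1 and Phb2 were lower at -0.84 and -0.46 on the log2 scale.

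On chromosome 17, C4b and Cfb lie in the MHC class III region. Of 12 tested neighbours 6 were higher and 2 lower, with a median log2 fold change of 0.21. Over all tested genes 35.1% were called higher and 34.2% lower. Tnxb, tenascin X, next to C4b, rose 3.02-fold (edgeR adjusted p = 4.46e-07), Skiv2l, a helicase of RNA decay, 1.86-fold, Ehmt2, a histone methyltransferase, 1.73-fold and Fkbpl 2.47-fold. Of the 4 tested genes between C4b and Cfb, Skiv2l was thus higher, Nelfe, a subunit of the negative elongation factor, was lower (log2 fold change -0.25, edgeR adjusted p = 0.0223), and Stk19 and Dxo did not pass the test (0.13 and -0.16). C2, on the other side of Cfb, was not called.

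**Figure D4:**
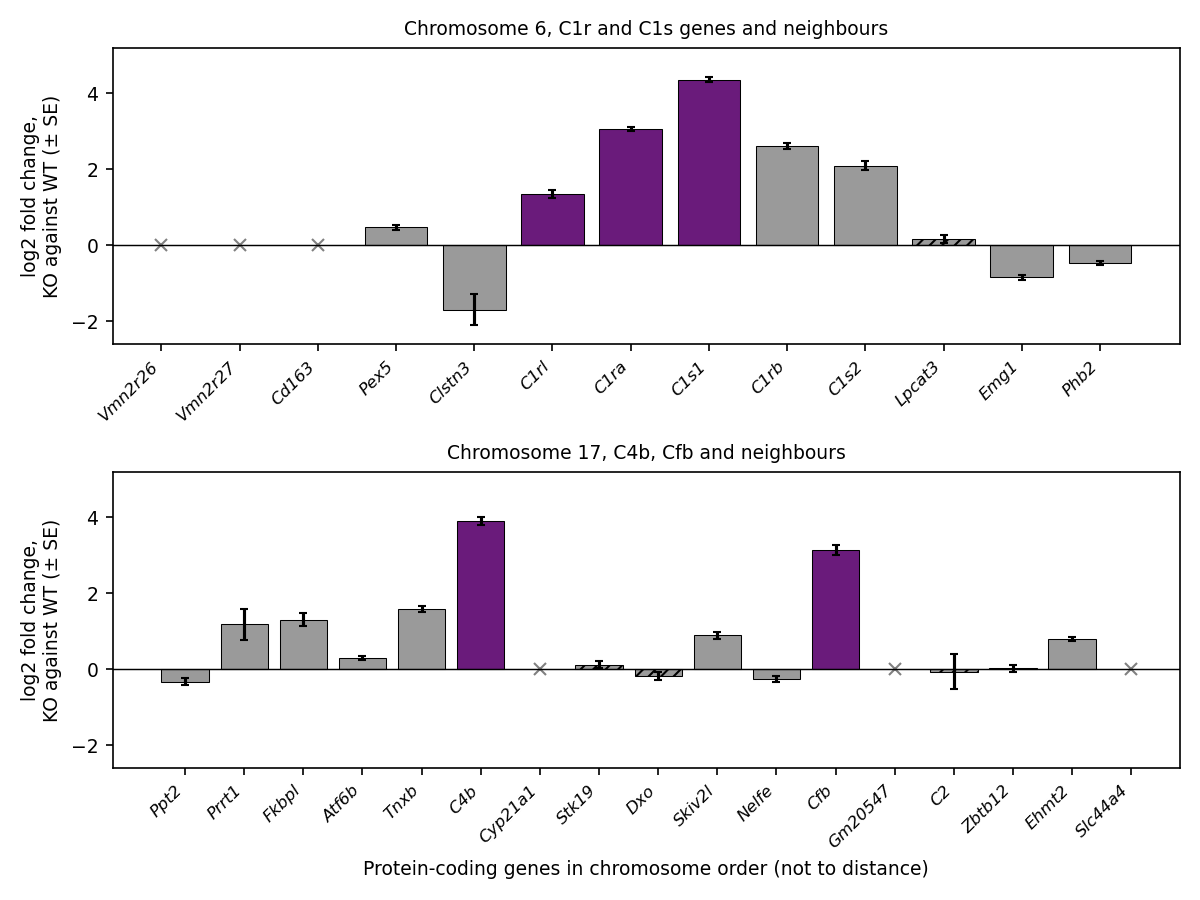
Log2 fold change, KO against WT, with its SE along the protein-coding gene order (GENCODE M21, spacing not to distance). Purple bars are the genes described, grey bars their neighbours, hatched bars did not pass an adjusted p of 0.05, and crosses were removed by the low-count filter. The run from C1rl to C1s2 lies at 1.35 to 4.36 between Clstn3 at -1.69 and Lpcat3 at 0.18.

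Around the other members, C3 had 3 of 4 tested neighbours called higher, with Gpr108 2.70-fold and Trip10 1.91-fold higher. For Cd55 it was 1 higher and 2 lower of 4, with the replication helicase subunit Mcm6 3.86-fold lower and Pfkfb2 1.93-fold higher. Around Cd59a 3 were higher and 1 lower of 6, with the mRNA cleavage factor Cstf3 falling from 71.4 to 35.7 CPM. Around Masp1 2 were higher and 3 lower of 5, with the replication factor subunit Rfc4 5.85-fold and Bcl6 2.39-fold lower and the sialyltransferase St6gal1 3.69-fold higher. Over all 38 tested neighbours of the 9 genes, 18 were higher and 11 lower, and the median log2 fold change was 0.29. The 38 include C1rb, C1s2, C2 and Cd59b, which were also counted among the other complement genes. Over all tested genes 35.1% were called higher, 34.2% lower and 69.3% either way, so a call by itself sets no neighbour apart.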

How the data were processed

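Per the file headers, the deposited values are raw read counts and FPKM, listed by Ensembl gene for 3 WT and 3 KO libraries. The FPKM were normalized by the authors. The submitters' processing notes name build GRCm39 and the tools HISAT2, edgeR, SAMtools 1.3.1 and CASAVA 1.8. No source used here gives the read counter, strand setting or annotation release, and antisense reads may not be separable. Exons of the antisense genes Gm16567 and Gm16083 cover 18.4% of C1s1 and 2.10% of Cd55 exon bases, with at most 198 and 10 counts in a library.

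Symbols (98.23% of IDs matched), gene order and exons came from GENCODE M21, of build GRCm38, so no gene coordinates are given. Promoter windows are from RefSeq with their own build. C4b, Cfb and Masp1 had no entry.

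Genes were filtered with filterByExpr (18732 kept), scaled with TMM factors (0.952 to 1.06) and compared between KO and WT over 6 libraries by edgeR 4.0.16 (R 4.3.3), using its robust quasi-likelihood fit with Benjamini-Hochberg adjustment over all tested genes at 0.05. The SE is the log2 fold change divided by the square root of F. The test was also run on simulated counts in which few genes changed. That setting cannot check the scaling where 69.3% of genes are called, as here. Replicate pairs gave a chi-square of 20.7 to 31.6 per degree of freedom, above sampling noise, and each library counted as 1 sample. Alternatives used DESeq2 1.42.0 (size factors, Wald test), limma 3.58.1 on FPKM of at least 0.1 in 3 libraries with a pseudocount of 0.1 or 1, other filters, scaling and thresholds, a replicate block, and leaving out each library. Neighbours were the 5 nearest protein-coding genes on each side. Named were the 9 genes, Nono, up to 5 called genes per role group with the smallest adjusted p, related copies, and up to 4 called neighbours per cluster. Clstn3, Lpcat3, Stk19, Dxo, Nelfe and genes at or near 0 counts were named after their values were seen. The members and lists were chosen with earlier results of these data known. The result of 1 list member is left out and not reported here.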

Additional observations from a re-analysis of the deposited data

How the results depend on the processing

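Of 135 results for the 9 genes under 15 alternatives each, 134 kept the direction and the call. The exception was Cd59a, whose log2 fold change of -1.57 (adjusted p = 0.0126) did not pass a threshold of 0.01. Its log2 fold change lay between -1.77 and -1.06 when single libraries were left out. The replicate block left 6 of the 9 genes called higher and 3 lower, and 6214 higher and 6019 lower over all genes. Same-numbered libraries did not deviate together (correlations -0.024 to 0.018), so the numbers were not taken as pairs. C2, not called, lay between -0.31 and 0.20 when single libraries were left out (0.20 without WT replicate 2, 0.12 without KO replicate 3), and Cd59b, not called, between -0.10 (without KO replicate 2) and 0.76. Scaling by total counts moved the median of all genes from 0.0313 to -0.0992 and left 45.4% of all calls higher, against 50.7%. The smallest log2 rise of Cfb, 2.12, came from limma on log2(FPKM + 1), a scale that understates changes of low genes. Genes under about 1 CPM, such as C2, Masp2 and Cr2, are limited by depth.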
